A study of Homo sapiens with 18 samples.

Results

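*TFF1*, *TFF2*, *TFF3*, *AGR2*, *AGR3*, *LGALS4*, *CEACAM1*, *CEACAM5*, *CEACAM6* and *LCN2* were followed as a set of secretory and cell surface genes associated with the classical type of pancreatic ductal adenocarcinoma (PDAC). They were chosen by symbol and by no threshold on their values, and all 10 were found among the 40266 gene symbols of the expression table. RNA had been sequenced from 18 libraries of 2 human PDAC lines. Panc1 comes from a primary tumour and served as the mesenchymal-like model, and Panc89 comes from a lymph node metastasis and served as the epithelial model. Each line was sequenced as parental cells, as Holoclone cells and as Paraclone cells, untreated and with 3 replicates in each of the 6 groups. Holoclone and Paraclone are colony shapes, compact and stem cell-like for the first and loose and more differentiated for the second. Within a line, each of these cell variants was expanded from 1 single cell, so that a difference between Holoclone and Paraclone cells is a difference between 1 clone and another. The replicates are 3 passages of the same cells, and p-values measure the spread between passages, pooled over the 6 groups.

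Trefoil factors (*TFF1*, *TFF2* and *TFF3*) are small secreted peptides of the mucous layer of the gut. AGR2 and its paralog AGR3 are protein disulfide isomerases of the endoplasmic reticulum, and AGR2 is needed for the folding of mucins. LGALS4 is a galectin, a lectin that binds galactosides. CEACAM proteins are immunoglobulin-like adhesion molecules of the cell surface, of which CEACAM5 is the carcinoembryonic antigen (CEA) followed in blood as a tumour marker. LCN2 is a secreted lipocalin that binds bacterial siderophores. Several of these genes are silent in the normal duct and switched on in precursor lesions and well differentiated PDAC, and they stand among the genes that define the classical transcriptional subtype.

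Levels are given in TPM, transcript abundances scaled for transcript length and to a fixed library total, so that they can be compared between genes. Differences between groups are given as log2(TPM + 1), a scale on which changes of genes with values around 1 TPM or lower come out too small. They were tested with limma on the 16093 genes that reached 1 TPM in 3 or more libraries, and adjusted p-values are over all of these genes. Of the 10 genes, 9 were tested, and *AGR3* was not. *AGR2* reached 1 TPM in 18 libraries. *CEACAM5*, *CEACAM6* and *TFF2* reached it only in Panc89 libraries and *TFF3* only in Panc1 libraries, so these genes entered the test through the line in which they were high. The libraries held 12932 to 14199 genes at 1 TPM or more, and mitochondrially encoded genes took 5.62% to 9.44% of their TPM. The epithelial keratins *KRT8* and *KRT19* were present in both lines, with group means of 410.5 to 1411 TPM for *KRT8* and 222 to 1651 TPM for *KRT19*. Of the other epithelial markers listed, *KRT18* had group means of 731 to 1463 TPM. *EPCAM* had group means of 1.73 to 29.2 TPM in Panc1 and of 178 to 279 TPM in Panc89. Those of *CDH1* were 0.990 to 2.84 TPM in Panc1 and 75.3 to 98.0 TPM in Panc89. The mesenchymal marker *VIM* had group means of 2465 to 4318 TPM in Panc1 and of 0.065 to 0.361 TPM in Panc89. *ZEB1* went the same way, at 14.2 to 17.2 TPM in Panc1 and 0.052 to 1.47 TPM in Panc89. *FN1* went the other way, at 0.213 to 0.464 TPM in Panc1 and 1.20 to 13.6 TPM in Panc89. *CDH2* overlapped between the lines, at 1.38 to 13.8 TPM in Panc1 and 3.10 to 8.32 TPM in Panc89. The 5 acinar, 4 endocrine and 4 fibroblast markers summed to at most 1.56 TPM in any library. Leukocyte markers, 4 genes, summed to 3.90 to 5.13 TPM in parental, 2.28 to 5.12 TPM in Paraclone and 0.351 to 0.610 TPM in Holoclone cells of Panc89 and to at most 0.934 TPM in Panc1. Neutrophil markers, also 4 genes, summed to 1.00 to 3.505 TPM in parental Panc89 cells and to at most 2.02 TPM in the other groups, and the part of either list in the results was not tested. The lowest correlation between 2 libraries of a group was that of Panc89 Paraclone replicates 1 and 2, at 0.954 across genes.

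In summed level the 10 genes were higher in 8 of the 9 Panc89 libraries than in any Panc1 library, while Panc89 Paraclone replicate 2 lay below the highest Panc1 library. They added up to 127 to 404 TPM in the 9 Panc1 libraries. In Panc89 they reached 1948, 493 and 1260 TPM in parental cells, 741, 1965 and 3356 TPM in Holoclone cells and 1568, 383 and 1030.0 TPM in Paraclone cells. The Panc1 sum was nearly all *AGR2*, whose average share was 88.6% of it in parental, 93.2% in Holoclone and 93.5% in Paraclone cells. The leading gene of Panc89 depended on the cell variant. *LCN2* held 82.0% of the sum in parental cells and 65.5% in Holoclone cells, while in Paraclone cells *CEACAM6* held 44.2% and *LCN2* 32.7%.

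**Figure D1:**
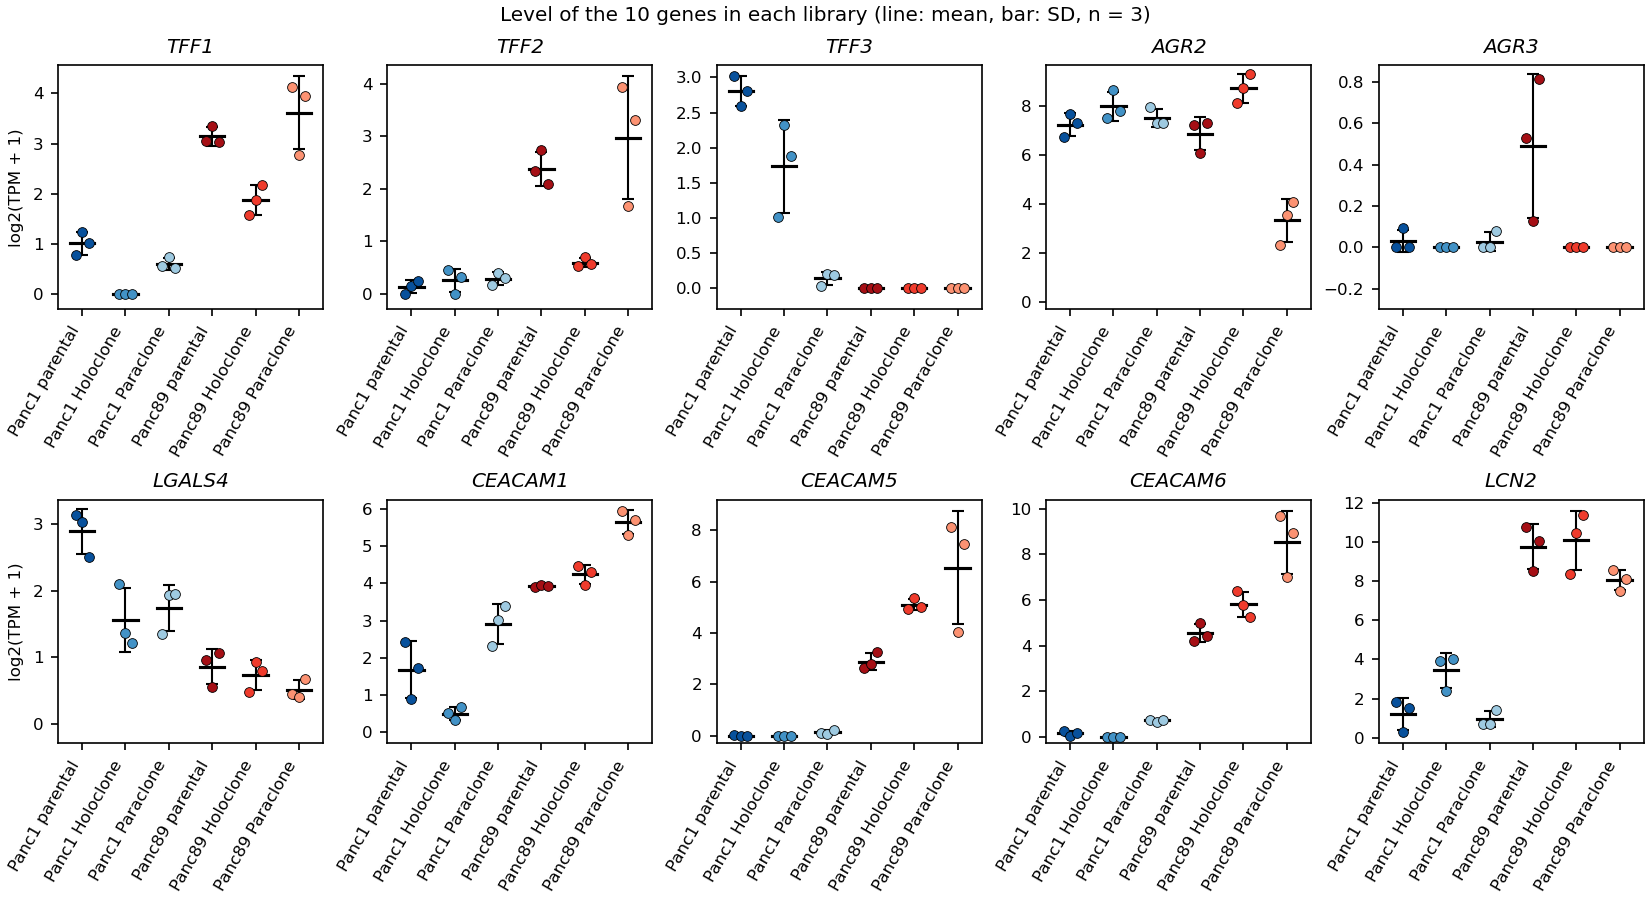
Level of each of the 10 genes on the log2(TPM + 1) scale (y axis, its own range in each panel) in the 6 groups (x axis), with 1 point per library, the mean as a line and the SD of 3 replicates as a bar. *CEACAM5*, *CEACAM6* and *LCN2* were high in Panc89 (red) and low in Panc1 (blue), *TFF3* was at 0 in all 9 Panc89 libraries, and *AGR2* was high in every group but Panc89 Paraclone cells.

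The trefoil factors lie next to each other on chromosome 21 (GRCh38), all on the minus strand, *TFF3* at chr21:42311667-42315409, *TFF2* at chr21:42346357-42350997 and *TFF1* at chr21:42362282-42366535, with 30.9 kb and 11.3 kb between them. *TFF1*, the trefoil peptide of the stomach surface, was at 7.25, 9.24 and 7.18 TPM in parental Panc89 cells, at 2.00, 2.66 and 3.49 TPM in Panc89 Holoclone cells and at 16.4, 5.88 and 14.4 TPM in Panc89 Paraclone cells. In parental Panc1 cells it was at 0.716, 1.37 and 1.03 TPM, in Panc1 Paraclone cells at 0.471, 0.668 and 0.436 TPM, and in all 3 Panc1 Holoclone libraries it was listed at 0. Holoclone cells thus had the lowest *TFF1* of their line, with no overlap with parental or Paraclone libraries in either line. In Panc89 the difference of Holoclone minus Paraclone was −1.74 ± 0.27 (SE, log2) with an adjusted p of 0.000115, and that of Holoclone minus parental was −1.27 ± 0.27 with an adjusted p of 0.00244. In Panc1 Holoclone cells *TFF1* was lower than in parental cells with an adjusted p of 0.0223, a call that was lost with median-of-ratios scaling (adjusted p = 0.0568) and without parental replicate 2 or 3 or any of the Holoclone replicates (0.0539 to 0.0862). The comparison with Paraclone cells gave an adjusted p of 0.0895.

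*TFF2*, the trefoil peptide of gastric glands, was at 4.05, 5.64 and 3.25 TPM in parental Panc89 cells, at 0.437, 0.617 and 0.476 TPM in Panc89 Holoclone cells and at 14.5, 2.19 and 8.89 TPM in Panc89 Paraclone cells. It stayed under 0.36 TPM in all 9 Panc1 libraries. In Panc89 the Holoclone libraries were again below all others, with a difference of −2.38 ± 0.38 (log2, SE) from Paraclone cells (adjusted p = 0.000171) and of −1.79 ± 0.38 from parental cells (adjusted p = 0.00271). Paraclone and parental Panc89 libraries overlapped for *TFF1* and for *TFF2*, and the differences of 0.47 and 0.59 had adjusted p-values of 0.255 and 0.325. Without Panc89 Paraclone replicate 2, the lowest of its group for both genes, they were 0.89 and 1.24, with adjusted p-values of 0.00258 and 0.000674.

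*TFF3*, the trefoil peptide of intestinal goblet cells, had the opposite distribution between the lines. It was listed at 0 in all 9 Panc89 libraries. In Panc1 it was at 7.12, 5.06 and 6.01 TPM in parental cells, at 1.02, 3.996 and 2.67 TPM in Holoclone cells and at 0.024, 0.147 and 0.143 TPM in Paraclone cells. These 3 groups did not overlap, and each step was past the threshold, with a difference of −1.07 ± 0.23 for Holoclone minus parental cells (adjusted p = 0.00559) and of 1.60 ± 0.23 for Holoclone minus Paraclone cells (adjusted p = 5.77e-05). The first of these was lost when the Panc1 Holoclone and parental libraries were fitted alone (adjusted p = 0.14). The SE rests on the spread of all 18 libraries, of which the 9 of Panc89 had none for *TFF3*. The SD of the Panc1 Holoclone libraries was 0.66 (log2). Neighbouring genes of 1 family thus had their highest mean levels in different lines, *TFF1* and *TFF2* in Panc89 Paraclone cells and *TFF3* in parental Panc1 cells. *TFF1* was also present in parental Panc1 cells, at 0.716 to 1.37 TPM.

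*AGR2* lies on chromosome 7 at chr7:16791811-16833433, minus strand, and *AGR3* follows at a distance of 26.0 kb at chr7:16859412-16881987. *AGR2* was the most widely expressed of the 10 genes. Because its level turned on the Panc89 clone, the 250 bases before its start site are printed as RefSeq gives them for GRCh38.p14, at chr7:16805000-16805249 on the minus strand and 5′ to 3′. No GENCODE 44 exon overlaps this stretch, which lies in an intron of 1 longer *AGR2* transcript. Capitals mark the match to the GATA motif AGATAA, searched on both strands and held by 9.17% of the 35116 promoter stretches of this length.
AGR2: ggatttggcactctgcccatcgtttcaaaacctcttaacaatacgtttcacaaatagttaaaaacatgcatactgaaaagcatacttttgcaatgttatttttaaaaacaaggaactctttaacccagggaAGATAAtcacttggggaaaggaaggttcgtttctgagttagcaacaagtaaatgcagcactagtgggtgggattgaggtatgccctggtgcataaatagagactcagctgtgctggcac
The forkhead motif TGTTTAC (2.98% of promoters) and the TATA box TATAAA (10.7%) had no match in these letters. A match or its lack describes these letters only.

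*AGR2* was at 104, 200.5 and 158 TPM in parental Panc1 cells, at 181, 394 and 219 TPM in Panc1 Holoclone cells and at 244, 157 and 154 TPM in Panc1 Paraclone cells. In Panc89 it was at 146, 66.9 and 157 TPM in parental cells, at 271, 426 and 621 TPM in Holoclone cells and at 4.05, 10.8 and 15.7 TPM in Paraclone cells. The 3 Panc89 Paraclone libraries thus stood below the other 15 libraries. The Panc1 groups overlapped, and so did parental cells of both lines (difference −0.37, 95% interval −1.33 to 0.60, adjusted p = 0.493).

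Panc89 Holoclone cells exceeded Panc89 Paraclone cells by 5.38 ± 0.45 (log2, SE), with an adjusted p of 2.69e-07. On the TPM scale the means were 439.6 ± 175 and 10.2 ± 5.86 (SD, n = 3). Against parental Panc89 cells, which served as control in both comparisons, Holoclone cells were higher by 1.84 ± 0.45 (adjusted p = 0.00737) and Paraclone cells differed by −3.54 ± 0.45 (adjusted p = 5.3e-05). In Panc1 the difference of Holoclone minus Paraclone cells was 0.47 with a 95% interval from −0.50 to 1.43 and an adjusted p of 0.465. The difference between the lines in this contrast was itself past the threshold, at 4.92 ± 0.64 with an adjusted p of 2.75e-05. Ranked within each library, *AGR2* was between place 223 and place 525 of all genes in Panc89 Holoclone cells and between place 6755 and place 10707 in Panc89 Paraclone cells.

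*AGR3*, the close paralog, was nearly silent. It was at 0.444, 0.0904 and 0.76 TPM in parental Panc89 cells, at 0.0654 TPM in 1 parental Panc1 library and at 0.0576 TPM in 1 Panc1 Paraclone library, and was listed at 0 in the other 13 libraries. The libraries listed at 0 include those of Panc89 Holoclone cells, which had the highest *AGR2*.

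The CEACAM genes lie in a cluster on chromosome 19, *CEACAM5* at chr19:41708585-41730433 and *CEACAM6* at chr19:41750977-41772211 on the plus strand with 20.5 kb between them, and *CEACAM1* 735 kb further at chr19:42507304-42561234 on the minus strand. Their transcripts resemble each other. Of the distinct 31-base words in GENCODE 44 transcripts, 16.5% of those of *CEACAM5*, 14.8% of those of *CEACAM6* and 8.81% of those of *CEACAM1* also occur in other genes, and *CEACAM5* and *CEACAM6* share 187 of them. Estimated levels can thus be divided unequally between these genes, and low values of 1 member beside high values of another are uncertain. The stretches before their RefSeq start sites (GRCh38.p14, 5′ to 3′) are shown because these genes rose together in Panc89 Paraclone cells. They are chr19:41708376-41708584 on the plus strand, chr19:41755280-41755519 on the plus strand and chr19:42528482-42528731 on the minus strand, and none of them overlaps a GENCODE 44 exon. The *CEACAM6* and *CEACAM1* stretches lie inside the spans of their genes, and the *CEACAM5* stretch ends just before its gene. Capitals mark matches to the TATA box TATAAA (10.7% of promoters), the GC box GGGCGG (42.6%) and the kappa B motif, GGG and CC with 5 bases between them (54.4%), on either strand, and in *CEACAM1* neighbouring matches run together.
CEACAM5: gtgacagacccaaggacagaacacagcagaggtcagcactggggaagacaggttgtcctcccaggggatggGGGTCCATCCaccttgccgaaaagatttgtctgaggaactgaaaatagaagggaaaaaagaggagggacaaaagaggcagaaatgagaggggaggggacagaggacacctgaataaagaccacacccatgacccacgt
CEACAM6: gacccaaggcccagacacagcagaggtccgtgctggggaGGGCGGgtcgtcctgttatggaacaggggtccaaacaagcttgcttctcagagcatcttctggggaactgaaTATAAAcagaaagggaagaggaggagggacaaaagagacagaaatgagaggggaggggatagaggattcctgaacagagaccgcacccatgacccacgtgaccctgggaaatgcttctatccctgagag
CEACAM1: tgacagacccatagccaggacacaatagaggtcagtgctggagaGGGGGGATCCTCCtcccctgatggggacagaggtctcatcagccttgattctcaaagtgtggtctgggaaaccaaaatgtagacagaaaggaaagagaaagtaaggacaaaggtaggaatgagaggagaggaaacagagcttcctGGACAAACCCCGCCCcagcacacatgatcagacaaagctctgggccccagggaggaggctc
Over the full 250 bases, a global alignment gave 73.6% identity between *CEACAM5* and *CEACAM6*, 67.6% between *CEACAM1* and *CEACAM6* and 64.4% between *CEACAM1* and *CEACAM5*. The other pairs among the 7 of 10 genes with a promoter in the table lay between 38.2% and 49.7%. The TATA box match is in *CEACAM6* alone of the 3, from 139 to 134 bases before the start, and the GC box matches are in *CEACAM6* and *CEACAM1*. None of the 3 held the AP-1 motif TGACTCA (4.20% of promoters) or the forkhead motif.

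*CEACAM6*, a GPI-anchored adhesion molecule, was at 17.5, 30.4 and 20.7 TPM in parental Panc89 cells, at 82.0, 54.3 and 37.1 TPM in Panc89 Holoclone cells and at 817, 127.5 and 487 TPM in Panc89 Paraclone cells. In Panc1 it was at most 0.685 TPM, and it was listed at 0 in all 3 Panc1 Holoclone libraries. The Panc89 groups did not overlap, with Paraclone cells highest and parental cells lowest. Holoclone minus Paraclone was −2.73 ± 0.46 (log2, SE, adjusted p = 0.000283), and Paraclone cells exceeded parental cells by 3.996 ± 0.465 (adjusted p = 2.25e-05). Holoclone cells were above parental cells by 1.26 ± 0.46, with an adjusted p of 0.0598 that missed the threshold (0.0475 without Holoclone replicate 3).

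*CEACAM5* was at 5.22, 5.85 and 8.52 TPM in parental Panc89 cells and at 29.9, 40.0 and 31.1 TPM in Panc89 Holoclone cells. In Panc89 Paraclone cells it was at 280.4, 15.3 and 178 TPM, so that replicate 2 of this group lay below the Holoclone libraries and the other 2 far above them. In Panc1 it was at most 0.166 TPM. Paraclone cells exceeded parental cells by 3.66 ± 0.67 with an adjusted p of 0.0011, lost when those groups were fitted alone (adjusted p = 0.0843). Holoclone cells exceeded parental cells by 2.22 ± 0.67 with an adjusted p of 0.0245, which moved above the threshold when low genes were kept (0.0511) and without parental replicate 1 (0.0757), parental replicate 2 (0.0671), Holoclone replicate 2 (0.0766) or Holoclone replicate 3 (0.0542). Holoclone minus Paraclone was −1.44 with a 95% interval from −2.87 to −0.02 and an adjusted p of 0.109. Without Paraclone replicate 2 it was −2.71, with an adjusted p of 1.45e-07.

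*CEACAM1* carries a cytoplasmic signalling tail in its long isoforms. Unlike *CEACAM5* and *CEACAM6*, it reached 1 TPM in libraries of both lines. In Panc89 it was at 14.0, 14.6 and 14.3 TPM in parental, at 21.1, 14.7 and 18.8 TPM in Holoclone and at 60.3, 38.3 and 51.3 TPM in Paraclone cells. In Panc1 it was at 4.35, 0.866 and 2.32 TPM in parental, at 0.427, 0.247 and 0.598 TPM in Holoclone and at 4.04, 7.06 and 9.58 TPM in Paraclone cells. In both lines Paraclone libraries were above all Holoclone libraries, and Holoclone minus Paraclone was −1.40 ± 0.32 in Panc89 (adjusted p = 0.00286) and −2.41 ± 0.32 in Panc1 (adjusted p = 2.79e-05). The size of this contrast did not differ between the lines past the threshold (difference 1.01, 95% interval 0.05 to 1.97, adjusted p = 0.0949), but it did with a pseudocount of 0.1 (2.27, adjusted p = 0.0104) and without Panc1 Paraclone replicate 1 (1.31, adjusted p = 0.0323). Against parental cells, *CEACAM1* rose in Paraclone cells of Panc89 (1.71, adjusted p = 0.00124) and of Panc1 (1.23, adjusted p = 0.00925), although Panc1 Paraclone and parental libraries overlapped and the call was lost when they were fitted alone (adjusted p = 0.12). In Panc1 Holoclone cells it was lower than in parental cells (−1.18, adjusted p = 0.0255), a call that was lost without parental replicate 1 or 3 or any of the Holoclone replicates (adjusted p = 0.0546 to 0.12) and in a fit of those groups alone (adjusted p = 0.138).

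**Figure D2:**
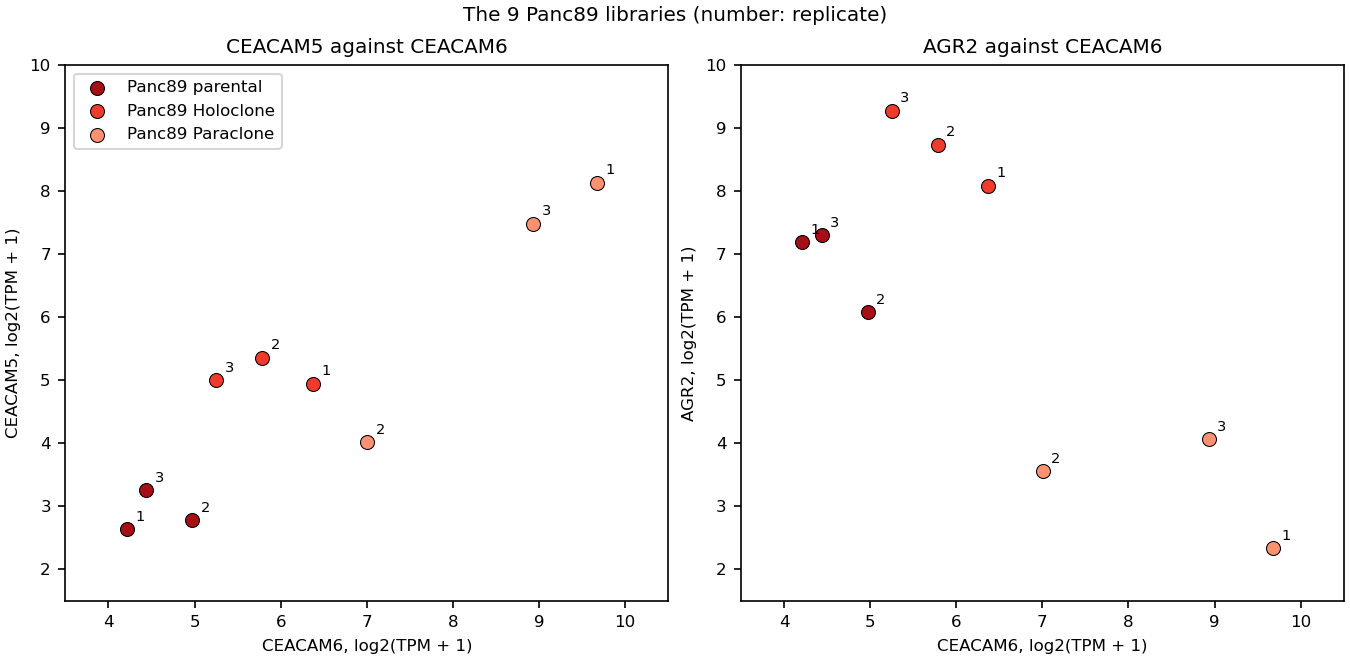
*CEACAM5* (left) and *AGR2* (right) on the y axis against *CEACAM6* on the x axis, all on the log2(TPM + 1) scale, for the 9 Panc89 libraries, with the replicate number beside each point. Paraclone replicates 1 and 3 were high for both CEACAM genes and replicate 2 was at 15.3 TPM of *CEACAM5* and 127.5 TPM of *CEACAM6*, while all 3 Paraclone libraries were low in *AGR2*.

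Of the 9 other CEACAM genes listed, only *CEACAM19* passed the filter. It had group means of 5.95 to 7.42 TPM in Panc89 and of 0.546 to 1.42 TPM in Panc1, and did not differ past the threshold between Holoclone and Paraclone cells of Panc89 (−0.02, adjusted p = 0.983). *CEACAM7* had group means of at most 0.057 TPM.

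*LGALS4* (chr19:38801671-38812945, minus strand), the galectin of intestinal epithelium, was higher in the mesenchymal-like line. In Panc1 it was at 7.81, 7.18 and 4.71 TPM in parental, at 3.29, 1.56 and 1.33 TPM in Holoclone and at 1.54, 2.82 and 2.88 TPM in Paraclone cells. In all 9 Panc89 libraries it was between 0.325 and 1.08 TPM, below each Panc1 library. The difference between Panc89 and Panc1 was −2.04 ± 0.25 in parental (adjusted p = 2.78e-06), −0.83 ± 0.25 in Holoclone (adjusted p = 0.00839, and 0.0568 without Panc1 Holoclone replicate 1) and −1.24 ± 0.25 in Paraclone cells (adjusted p = 0.000456). Within Panc1, both clones were below parental cells, at −1.34 in Holoclone (adjusted p = 0.00218, and 0.0597 when those groups were fitted alone) and −1.15 in Paraclone cells (adjusted p = 0.00287), and overlapped with each other.

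Of 12 other galectin genes listed, with *LGALS3BP* among them, 7 were tested. Between parental cells 2 were higher and 3 lower in Panc89, a share of called genes near the 66.0% of all genes. *LGALS9*, with mean levels of 101 TPM in parental Panc89 and 0.56 TPM in parental Panc1 cells, was higher (5.96, adjusted p = 2.2e-09), and so was *LGALS3BP*, which encodes a secreted galectin-3 ligand (2.92, adjusted p = 3.18e-10). *LGALS1*, a galectin of mesenchymal cells, was lower (−3.87, adjusted p = 6.95e-07), as was *LGALS8* (−3.45, adjusted p = 2e-11).

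*LCN2* lies on chromosome 9 at chr9:128149071-128153453, plus strand. The exon-free bases before its RefSeq start site (chr9:128149265-128149440, GRCh38.p14, 5′ to 3′) lie inside the span of the gene and are shown because *LCN2* differed most between parental cells of the lines among the 10 genes. Capitals mark matches to the kappa B motif, GGG and CC with 5 bases between them, which overlap on both strands from 176 to 166 bases before the start. As 54.4% of promoters hold this motif, a match does not set *LCN2* apart.
LCN2: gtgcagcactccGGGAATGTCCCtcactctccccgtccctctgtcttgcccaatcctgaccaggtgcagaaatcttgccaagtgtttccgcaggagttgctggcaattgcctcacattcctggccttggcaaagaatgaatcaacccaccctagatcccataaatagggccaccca
*LCN2* is known as a target of NF-kB. In parental Panc89 cells it was at 1753, 359.8 and 1047 TPM, in Panc89 Holoclone cells at 334, 1426 and 2643 TPM and in Panc89 Paraclone cells at 375, 182.5 and 274 TPM. In parental Panc1 cells it was at 2.50, 0.225 and 1.89 TPM, in Panc1 Holoclone cells at 14.0, 4.31 and 15.1 TPM and in Panc1 Paraclone cells at 0.633, 0.611 and 1.69 TPM. The lowest Panc89 library was thus far above the highest Panc1 library, and the spread between passages of 1 group was wide.

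*LCN2* exceeded Panc1 in Panc89 by 8.56 ± 0.70 in parental (adjusted p = 2.98e-08), by 6.64 ± 0.70 in Holoclone (adjusted p = 5.7e-07) and by 7.12 ± 0.70 among Paraclone cells (adjusted p = 2.85e-07). In Panc1, Holoclone libraries were above all Paraclone libraries, by 2.50 ± 0.70 with an adjusted p of 0.0107, and above all parental libraries by 2.23 ± 0.70 with an adjusted p of 0.0546, which passed the threshold with a pseudocount of 0.1 (0.0328) and without Holoclone replicate 2 (0.0331). In Panc89, Holoclone minus Paraclone was 2.02 ± 0.70 with an adjusted p of 0.035, but the libraries overlapped, since Holoclone replicate 1 lay below Paraclone replicate 1. This call was lost with median-of-ratios scaling (adjusted p = 0.0528), with a pseudocount of 0.1 (0.0784), without the filter on low values (0.0703), in a fit of those groups alone (0.126) and without Holoclone replicate 2 (0.107), Holoclone replicate 3 (0.168), Paraclone replicate 2 (0.0929) or Paraclone replicate 3 (0.076). Panc89 Paraclone minus parental was −1.71 with an adjusted p of 0.107, and −2.35 with an adjusted p of 0.0366 without parental replicate 2.

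Between the lines, the comparison asks which genes of the set were higher in Panc89 and which in Panc1. Each model is 1 line, and the lines also differ in origin, a lymph node metastasis and a primary tumour. Differences of state, of origin and of the line itself therefore cannot be told apart. In parental cells, *TFF1*, *TFF2*, *CEACAM1*, *CEACAM5*, *CEACAM6* and *LCN2* were higher in Panc89 and *TFF3* and *LGALS4* lower, while *AGR2* missed the threshold. That is 8 of 9 genes tested, 6 higher and 2 lower, where 66.0% of all genes were called, 27.5% higher and 38.5% lower. The median difference was 2.25 for the 9 genes and −0.18 for all genes tested. The differences were 2.13 ± 0.27 for *TFF1* (adjusted p = 3.81e-06), 2.26 ± 0.38 for *TFF2* (8.36e-05), 2.25 ± 0.32 for *CEACAM1* (1.37e-05), 2.88 ± 0.67 for *CEACAM5* (0.00137) and 4.400 ± 0.465 for *CEACAM6* (5.5e-07), in limma. Between Holoclone cells 5 were higher and 2 lower in Panc89 (65.8% of all genes called, 29.3% higher and 36.4% lower). *TFF2* and *AGR2* had differences of 0.34 and 0.73 that missed the threshold. Between Paraclone cells 6 were higher and 2 lower (60.7% of all genes called, 30.2% higher and 30.4% lower), and the 2 lower genes were *LGALS4* and *AGR2*, the latter at −4.19 ± 0.45 with an adjusted p of 8.3e-07. The median difference was 2.73 for the 9 genes between Paraclone cells, beside −0.0029 for all genes. These counts rest in part on how genes entered the test, since *CEACAM5*, *CEACAM6* and *TFF2* reached 1 TPM in Panc89 alone and *TFF3* in Panc1 alone. Parental Panc89 cells also held more of the endothelial markers, whose sum was 55.2 to 69.1 TPM there against at most 0.273 TPM in Panc1, 1.01 to 2.16 TPM in Panc89 Holoclone and 2.95 to 8.90 TPM in Panc89 Paraclone cells. *PECAM1* made up most of it, at a mean of 60.1 TPM in parental Panc89 cells, with 0.105 TPM of *VWF* and 3.78 TPM of *CDH5*, and its part in these differences was not tested.

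**Figure D3:**
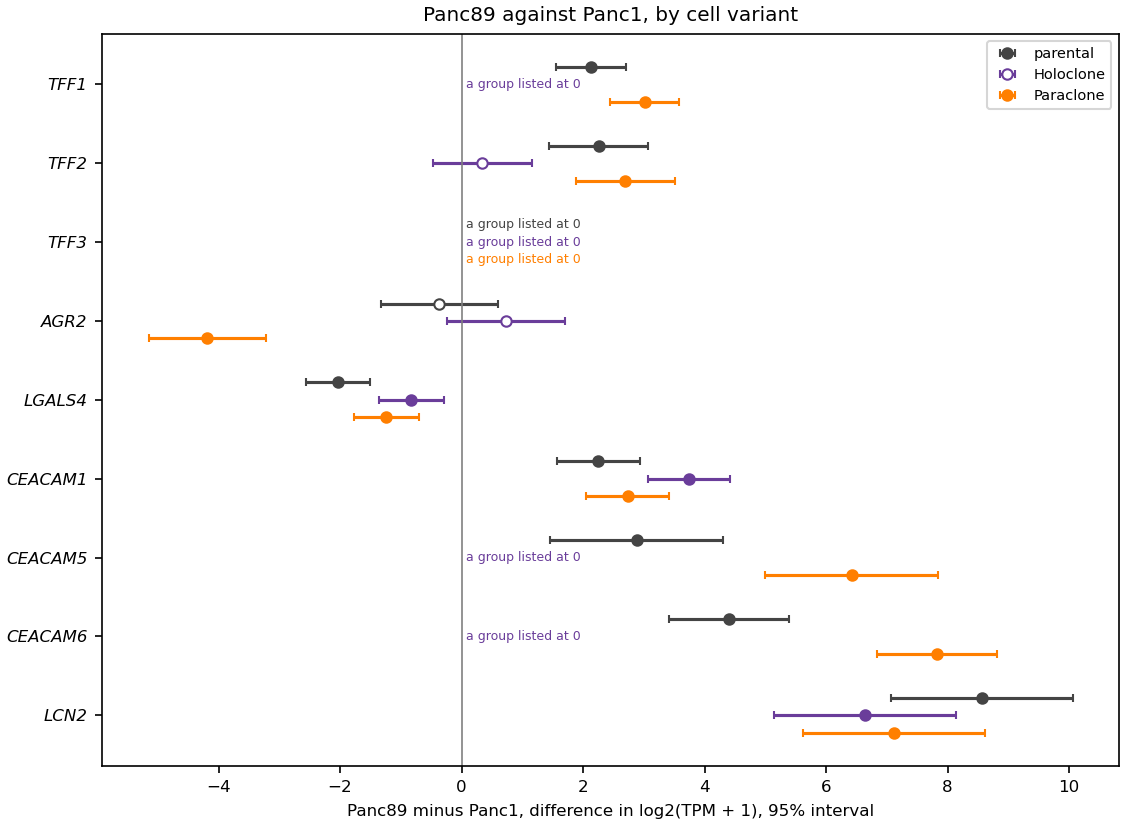
Difference of Panc89 minus Panc1 in log2(TPM + 1) (x axis) for the 9 genes tested (y axis), with 95% intervals, in parental, Holoclone and Paraclone cells. Filled points are past the adjusted p threshold of 0.05 and open points are not, and contrasts in which 1 group is listed at 0 in all libraries are marked by text. *LCN2* had differences between 6.64 and 8.56, and *AGR2* differed past the threshold in Paraclone cells only, at −4.19.

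Between the clones of a line, the comparison asks whether stem cell-like and more differentiated clones differ. In Panc89, *AGR2* and *LCN2* were higher and *TFF1*, *TFF2*, *CEACAM1* and *CEACAM6* lower in Holoclone than in Paraclone cells, which is 6 of 9 genes where 35.7% of all genes were called, 22.4% higher and 13.3% lower. The median difference was −1.40 for the 9 genes and 0.092 for all genes. In Panc1, *TFF3* and *LCN2* were higher and *CEACAM1* lower in Holoclone cells, which is 3 of 9 genes where 37.3% of all genes were called, 27.4% higher and 9.97% lower. With a pseudocount of 0.1, and in a fit of those groups alone, *TFF1* and *CEACAM6* were also called lower in Panc1 Holoclone cells. Both genes were listed at 0 in the Panc1 Holoclone libraries and under 0.7 TPM in Paraclone cells. *CEACAM1* was lower and *LCN2* higher in Holoclone cells of both lines by this test. The differences between the lines had adjusted p-values of 0.0949 and 0.749, of which that of *CEACAM1* passed the threshold with a pseudocount of 0.1 (0.0104). For *LCN2*, Holoclone and Paraclone libraries of Panc89 overlapped. Its Panc89 call was lost in limma after median-of-ratios scaling (adjusted p = 0.0528), when the Panc89 clones were fitted alone (0.126) and in other fits. Across the fits, 5 to 6 of the 9 genes were called between the Panc89 clones. The contrast differed between the lines for *AGR2*, *TFF1*, *TFF2*, *TFF3* and *CEACAM6*, 5 of 9 genes where 35.1% of all genes were called. It was higher in Panc89 for *AGR2* (14.8% of all genes) and lower for the other 4 (20.4%), of which *TFF1* and *CEACAM6* turned to 0.59 and 0.13 with a pseudocount of 0.1. Without Panc89 Paraclone replicate 2 it was also lower for *CEACAM5*, at −2.58 (adjusted p = 5.02e-06) against −1.31 with it (adjusted p = 0.311).

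**Figure D4:**
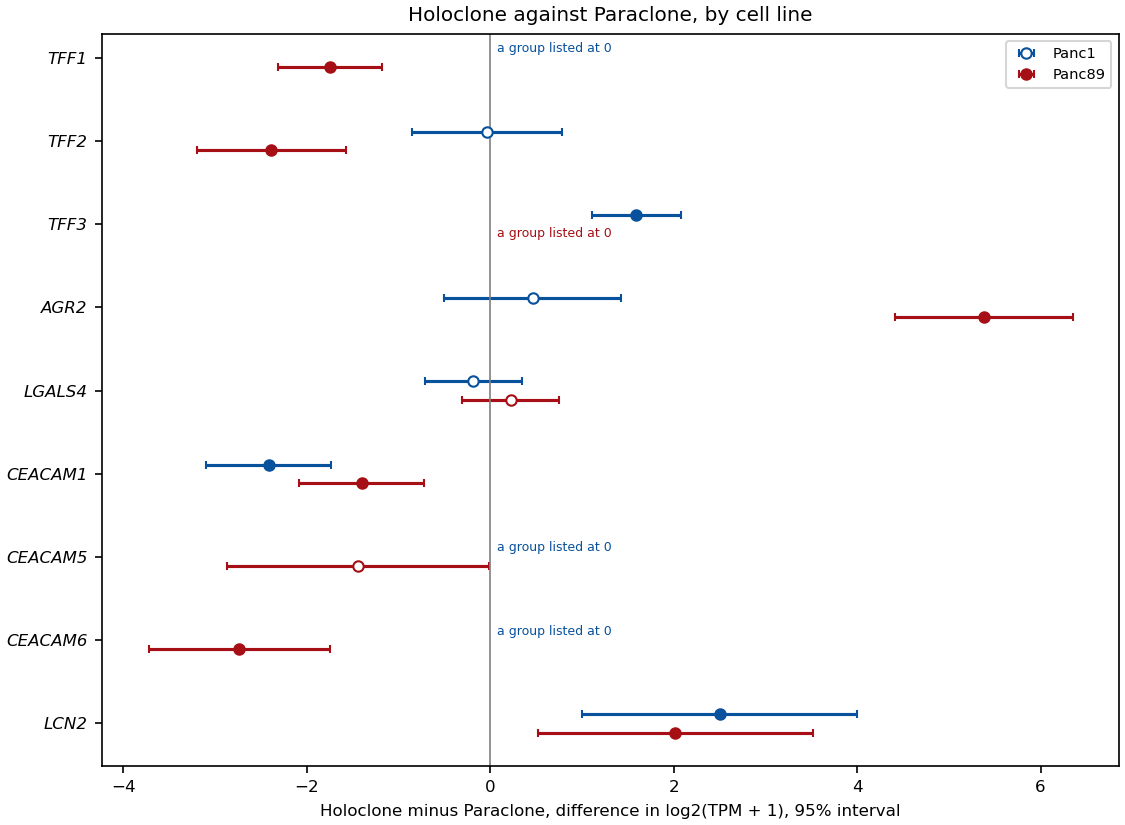
Difference of Holoclone minus Paraclone in log2(TPM + 1) (x axis) for the 9 genes tested (y axis), with 95% intervals, in Panc1 (blue) and Panc89 (red). Filled points are past the adjusted p threshold of 0.05, and contrasts in which a group is listed at 0 in all libraries are marked by text. In Panc89, *AGR2* was at 5.38, on the other side of 0 from *TFF1*, *TFF2*, *CEACAM1* and *CEACAM6*, which were between −1.40 and −2.73.

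Against parental cells, each comparison shares its control with the one beside it. In Panc1 Holoclone cells 4 of 9 genes were lower and 0 higher in limma, where 10.9% of all genes were called, 5.87% higher and 5.06% lower. The lower genes were *TFF1*, *TFF3*, *LGALS4* and *CEACAM1*. At an unadjusted p under 0.05 there was 1 higher gene, *LCN2*. The count of 4 was not stable. Without 1 library it was 2 to 3, and under the other alternatives 1 to 5, with 1 when those groups were fitted alone. In Panc1 Paraclone cells *CEACAM1* was higher and *TFF3* and *LGALS4* lower (28.6% of all genes called, 7.31% higher and 21.3% lower). The difference of *TFF3* there was −2.67 ± 0.23 with an adjusted p of 4.06e-07. In Panc89 Holoclone cells *AGR2* and *CEACAM5* were higher and *TFF1* and *TFF2* lower (24.7% of all genes called, 16.1% higher and 8.61% lower), and the median difference was 0.31 for the 9 genes and 0.080 for all genes. In Panc89 Paraclone cells *CEACAM1*, *CEACAM5* and *CEACAM6* were higher and *AGR2* lower (19.4% of all genes called, 9.37% higher and 10.02% lower), with medians of 0.47 and −0.020. Parental Panc89 cells lay between their clones for *TFF1*, *TFF2*, *AGR2* and *LCN2* by mean level, while all 3 CEACAM genes had their lowest Panc89 mean in parental cells.

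Mucins are folded with the help of AGR2 and are partners of trefoil factors in mucus. Of 12 listed mucins, mucus proteins and proposed receptors or partners of trefoil factors or AGR2, 11 were tested. In Panc89, 7 were lower and 0 higher in Holoclone than in Paraclone cells in limma, where 13.3% of all genes were lower and 22.4% higher. The same counts held for Holoclone against parental cells, where 8.61% of all genes were lower and 16.1% higher. At an unadjusted p under 0.05 there were also 0 higher genes in both comparisons. *MUC5AC*, *MUC5B*, *MUC6* and *CXCR4* had means of at most 0.350 TPM in Panc89 Holoclone cells and in each Panc1 group. They entered the test through parental and Paraclone cells of Panc89, so these counts rest in part on the filter. *MUC1*, a transmembrane mucin, had mean levels of 76.1 TPM in parental, 5.02 TPM in Holoclone and 67.6 TPM in Paraclone cells of Panc89, and Holoclone minus Paraclone was −3.51 (adjusted p = 1.15e-09). *MUC13* followed with −2.53 (adjusted p = 1.58e-06) and *LYPD3*, a proposed partner of AGR2, with −3.52 (adjusted p = 7.71e-07). *CXCR4*, a proposed receptor of TFF2, was listed at 0 in the Panc89 Holoclone group and had a mean of 20.8 TPM in Paraclone cells. The gel-forming *MUC5B* was highest in parental Panc89 cells, at 37.3 TPM, against 0.35 TPM in Holoclone and 4.46 TPM in Paraclone cells. The goblet cell mucin *MUC2* did not follow, with means of 11.04 TPM in parental, 12.1 TPM in Holoclone and 25.3 TPM in Paraclone cells of Panc89 and a difference of −0.76 between the clones (adjusted p = 0.109). In Panc1, 1 of the 11 passed the threshold between the clones (37.3% of all genes), *MUC1*, higher in Holoclone cells by 0.72 (adjusted p = 0.00553). Between parental lines 9 were higher in Panc89 and 1 lower (27.5% and 38.5% of all genes). This count too rests in part on the filter, since *MUC2*, *MUC5AC*, *MUC5B*, *MUC6*, *MUC13*, *LINGO2* and *CXCR4* entered the test through Panc89.

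Of 20 listed genes of protein folding in the endoplasmic reticulum and of the unfolded protein response, all were tested. In Panc89, 10 were higher and 0 lower in Holoclone than in Paraclone cells in limma, with 0 lower at an unadjusted p under 0.05, beside 22.4% of all genes higher and 13.3% lower, and the median was 0.50 for the list and 0.092 for all genes. *HSPA5*, the main chaperone of this compartment, was higher by 1.59 (adjusted p = 0.00572), with means of 1852 and 564 TPM. *HERPUD1*, of the degradation machinery, was higher by 1.54 (adjusted p = 0.00279), the transcription factor *CREB3L2* by 1.504 (adjusted p = 7.41e-05) and *XBP1*, which drives secretory capacity, by 1.16 (adjusted p = 0.000107). In Panc1 the same comparison gave 1 higher and 7 lower genes, beside 27.4% and 9.97% of all genes, with *PDIA5* lowest at −0.98 (adjusted p = 4.54e-05). Not all genes of the list went down there. *DDIT3* had means of 189.8 TPM in Panc1 Holoclone and 51.1 TPM in Panc1 Paraclone cells. Those of *HSPA5* were 1243 and 835 TPM and those of *ATF6* 70.3 and 44.9 TPM. The median of the list in Panc1 was −0.33 and that of all genes 0.19. The shares and the median of all genes between the Panc1 clones depended on scaling. With upper quartile scaling the median of all genes was 0.0068, and 51.3% rather than 73.3% of called genes were higher. The list itself was not fitted under other scalings. The contrast differed between the lines, upward in Panc89, for 9 of 20 genes (14.8% of all genes).

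**Figure D5:**
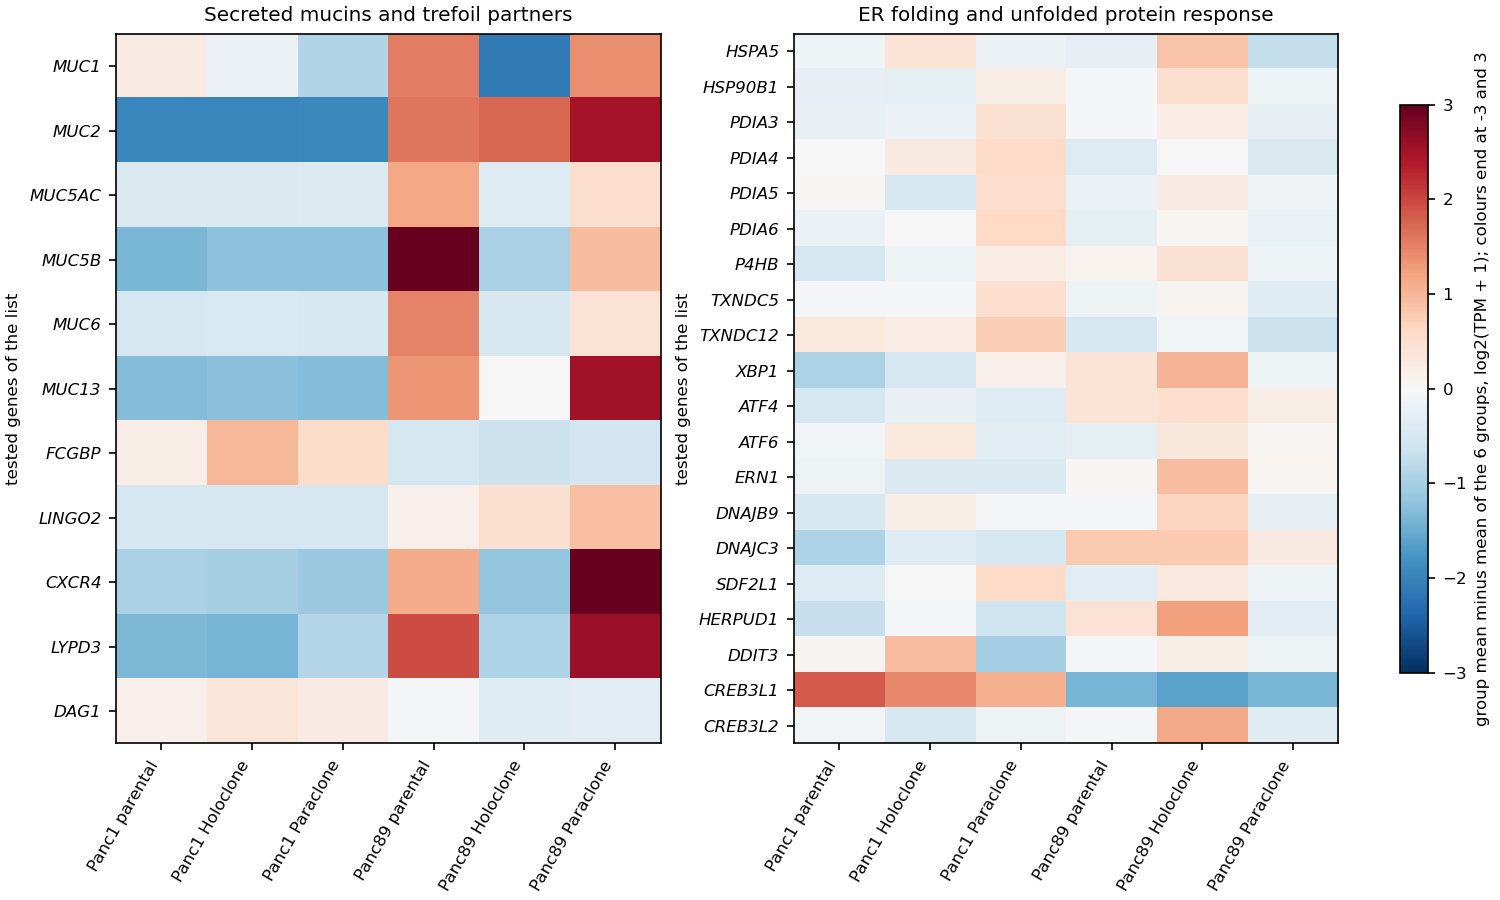
Group mean minus the mean of the 6 groups on the log2(TPM + 1) scale (colour, red above and blue below 0, ending at −3 and 3) for the tested mucins and partners of trefoil factors or AGR2 (left) and the genes of protein folding and the unfolded protein response (right), with genes in rows and groups in columns. In Panc89 Holoclone cells *MUC1*, *MUC5B* and *LYPD3* were low and *HSPA5*, *HERPUD1* and *CREB3L2* high against the other groups of the line.

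Transcription factors of foregut and secretory cells included several known regulators of the genes described here. Of 20 listed, 15 were tested, and 6 were higher and 4 lower in Panc89 Holoclone than in Paraclone cells (22.4% and 13.3% of all genes). *FOXA2* had means of 56.9 and 1.07 TPM, a difference of 4.76 (adjusted p = 1.74e-10), while its relative *FOXA1* had means of 5.72 and 30.8 TPM, a difference of −2.34 (adjusted p = 1.8e-06). *SPDEF*, a factor of goblet cells, was lower in Holoclone cells (−1.64, adjusted p = 0.00178) and *KLF4* higher by 1.87 (adjusted p = 0.000415). Between parental lines 9 were higher and 4 lower in Panc89 (27.5% and 38.5% of all genes). Among the higher were the epithelial factors *EHF* (5.77, adjusted p = 1.98e-13), *KLF5* (5.57, adjusted p = 3.66e-12) and *ELF3* (5.28, adjusted p = 1.09e-10). The 4 lower factors were *GATA4*, *FOXA2*, *PDX1* and *SOX9*. Their means in parental Panc89 and parental Panc1 cells were 2.49 and 17.3 TPM for *GATA4* and 4.33 and 35.3 TPM for *FOXA2*. They were 0.016 and 4.55 TPM for *PDX1* and 22.7 and 98.6 TPM for *SOX9*. *EHF* and *ESR1*, with Panc1 group means of at most 0.09005 TPM, entered the test through Panc89. *PDX1*, with Panc89 group means of at most 0.0686 TPM, entered it through Panc1.

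Of 20 listed receptors and partners of LCN2 and genes inducible by NF-kB, 19 were tested. Between parental lines 12 were higher and 2 lower in Panc89 (27.5% and 38.5% of all genes, and 66.0% called in either direction), with a median of 2.55 for the list and −0.18 for all genes. *S100A8*, *S100A9*, *IL1A*, *IL1B* and *SAA2* had Panc1 group means of at most 0.250 TPM and entered the test through Panc89. The count and the median of the list rest in part on this. *S100A9*, a calcium-binding protein of inflamed epithelia, had a mean of 377 TPM in parental Panc89 cells and was listed at 0 in parental Panc1 cells. *IL1A* was higher by 7.20 (adjusted p = 1.43e-12) and *CCL20* by 6.12 (adjusted p = 5.25e-12). *SLC22A17*, a proposed receptor of LCN2, was lower in Panc89 (−1.02, adjusted p = 0.000163), with means of 0.33 and 1.71 TPM. In Panc89, 4 of the 19 were higher and 7 lower in Holoclone than in Paraclone cells (22.4% and 13.3% of all genes).

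Other genes of the classical subtype were largely silent. Of 21 listed, 6 passed the filter, and 5 of them were higher in parental Panc89 than in parental Panc1 cells (27.5% of all genes). These 5, *ANXA10*, *GPX2*, *PLA2G10*, *SPINK4* and *ST6GALNAC1*, had Panc1 group means of at most 0.508 TPM. They entered the test through Panc89, where they were high, so this count was largely set by the filter. Between the Panc89 clones, 2 were higher in Holoclone cells, 1 was lower and 3 were not called (35.7% of all genes called). *GPX2*, a glutathione peroxidase of epithelia, was higher in Holoclone cells by 5.40 (adjusted p = 7.36e-12), with means of 53.6 and 0.289 TPM. *SPINK4*, a secreted peptide of goblet cells, was lower (−3.81, adjusted p = 5.42e-12), with means of 0.22 and 16.1 TPM.

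The genes most like each of the 10 in pattern were found by the Pearson correlation of log2(TPM + 1) over the 18 libraries after subtracting the mean of each line, among 10915 genes with a group mean of at least 10 TPM. The libraries fall into 6 groups that all genes share, so these correlations are descriptions. Closest to *AGR2* were *STT3A* (0.967), a subunit of the oligosaccharyltransferase, and *XPR1* (0.963), a phosphate exporter. *STT3A* had means of 336 TPM in Panc89 Holoclone and 123.5 TPM in Panc89 Paraclone cells. Closest to *TFF1* was *MSLN* (0.921), which encodes the surface antigen mesothelin, with means of 222, 88.4 and 403 TPM in parental, Holoclone and Paraclone cells of Panc89. Closest to *CEACAM5* was the cytokine gene *IL24* (0.944), to *CEACAM1* the kinase gene *MAP2K1* (0.925) and to *LCN2* *BRD1* (0.912).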

How the data were processed

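The authors sequenced RNA from 3 passages of each cell variant of the 2 PDAC lines, 18 libraries in all. Per their methods, stranded mRNA libraries were read paired-end, transcripts were quantified with kallisto 0.46.1 (the version is from the submitters' processing notes) against Ensembl GRCh38 release 106, and tximport gave scaled TPM. Whether kallisto was run with a strand setting is not given in the sources used here. The deposited values are log2(TPM + 1) per gene symbol and library, and TPM were recovered from them. TPM keep no read totals, so depth and counting error are unknown, and no interval or floor is given for a value of 0.

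Groups were taken from the deposited labels. Groups were compared in R 4.3.3 with limma 3.58.1 (lmFit, eBayes with trend, two-sided) and 1 mean per group over all 18 libraries. Genes had to reach 1 TPM in 3 or more libraries, p-values were adjusted over these 16093 genes by Benjamini-Hochberg, and the threshold was 0.05. The procedure was tested on simulated data first. The 10 genes and the related lists were chosen with earlier results of these data known. All 10 genes are named; from a related list, at most 4 genes past the threshold with the largest change and at least 10 TPM in the higher group are named, and genes whose role is described; for each of the 10 genes with a group mean of at least 10 TPM, up to 3 genes of like pattern are named. Some genes of like pattern are not reported here.

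Alternatives were a pseudocount of 0.1, no filter, upper quartile and median-of-ratios scaling, leaving out each library, the replicate number as a block, and fits without the libraries of other groups. Results of the related lists were not compared under these alternatives. Libraries of 1 line with the same number had correlations of −0.318 to 0.190 in their deviations from group means over 18 pairs, so the numbers were not taken to pair them. Positions are from GENCODE 44 (GRCh38) and promoters from RefSeq (GRCh38.p14, 7 of 10 genes matched), aligned with Biopython 1.88.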

Additional observations from a re-analysis of the deposited data

Results flagged for a closer look

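Of the 9 genes tested, 5 are listed here because their difference between Holoclone and Paraclone cells was not the same in Panc89 and Panc1, by the test of that difference itself in limma (log2 scale, Panc89 minus Panc1). For *AGR2* it was 4.92 with an adjusted p of 2.75e-05. For *TFF2* it was −2.35 (adjusted p = 0.00325), with values under 0.36 TPM in all Panc1 libraries. For *TFF3* it was −1.60 (adjusted p = 0.00124), and as this gene was listed at 0 in every Panc89 library, the value is that of Panc1 alone. For *TFF1* it was −1.14 (adjusted p = 0.0289) and for *CEACAM6* −2.02 (adjusted p = 0.0258). Both of the last were listed at 0 in Panc1 Holoclone cells, and both values turn positive with a pseudocount of 0.1. Both calls were also lost without the filter on low values (adjusted p = 0.0593 and 0.0537) and in a fit of the clone libraries alone (0.0605 and 0.06), that of *TFF1* without any 1 of 8 libraries (replicates 1 and 3 of both Panc1 clones and of Panc89 Paraclone cells, and replicates 1 and 2 of Panc89 Holoclone cells, 0.0506 to 0.0777) and that of *CEACAM6* without any 1 of 4 (Panc1 Paraclone replicate 2, Panc89 Holoclone replicate 3, and Panc89 Paraclone replicates 1 and 3, 0.0511 to 0.0657). With the replicate number as a block *TFF1* had an adjusted p of 0.0502.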

How the results depend on the processing

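Of the differences of single genes under all alternatives, 1060 kept direction and side of the threshold, 47 lost and 16 gained a call, and 11 turned sign. With upper quartile scaling all 90 kept both. With a pseudocount of 0.1, the difference between the lines in Holoclone minus Paraclone turned sign for *TFF1*, to 0.59, and *CEACAM6*, to 0.13, and 5 of the 10 genes rather than 3 were called between the Panc1 clones, as in a fit of those groups alone. For the difference between the lines, 3 rather than 5 were called without the filter and in a fit of the 12 clone libraries alone. Fits of the groups alone also gave 3377 rather than 5746 of all genes between the Panc89 clones, and 1 rather than 4 of the 10 genes for Panc1 Holoclone against parental cells. Leaving out 1 library gave 2 to 3 of the 10 genes (without parental replicate 3, Holoclone replicate 1 or Holoclone replicate 3: 2) and 1061 to 1571 rather than 1759 of all genes in that last comparison, fewest without Holoclone replicate 3, and 3 to 6 of the 10 genes for the difference between the lines (3 without Panc89 Paraclone replicate 1 or 3). Differences that turned sign without 1 library all missed the threshold: Holoclone minus parental *CEACAM5* in Panc1 (−0.013 to 0), Paraclone minus parental *LCN2* in Panc1 (−0.73 to 0.028), Holoclone minus Paraclone *TFF2* in Panc1 (−0.13 to 0.089), Panc89 minus Panc1 parental *AGR2* (−0.62 to 0.022), Holoclone minus parental *LCN2* (−0.33 to 1.15) and *LGALS4* (−0.28 to 0.0035) in Panc89, and the difference between the lines for *LCN2* (−1.13 to 0.36). Apart from the alternatives whose construction explains it (fewer genes or samples), the cause was not tested. As a replicate block, the number left the counts of called genes at 8, 7, 8, 3, 6, 4, 3, 4 and 4 in the 9 comparisons of groups, as in the fits without it, and gave 4 rather than 5 for the difference between the lines, where *TFF1* had an adjusted p of 0.0502. Of 18 libraries, 2 correlated best with a library of their own number. Scaling moved the median of all genes from −0.18 to 0.019 (median of ratios) between parental lines, from 0.19 to 0.0068 (upper quartile) between the Panc1 clones and from −0.17 to −0.024 for Panc1 Paraclone minus parental cells. The share of called genes that were higher moved from 41.6% to 51.8%, from 73.3% to 51.3% and from 25.6% to 47.4%, and from 62.8% to 52.5% between the Panc89 clones and from 65.2% to 51.3% for Panc89 Holoclone minus parental cells. Depth, unknown here, limits all genes near or under 1 TPM, which include *AGR3*, *TFF2*, *CEACAM5* and *CEACAM6* in Panc1.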
